A study of Mus musculus with 6 samples.

Results

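Mitochondrial ribosomal protein genes are the nuclear genes that encode the protein part of the mitochondrial ribosome. The members described here are the protein-coding genes whose symbol begins with Mrpl or Mrps followed by a digit. There were 78 such genes among 35905 genes with a summed value, 49 named Mrpl and 29 named Mrps, and all 78 passed the filter on low counts that left 13247 tested genes. Levels were measured by RNA sequencing of 3 libraries of EO771-tdT-LM2 cells and 3 libraries of EO771-tdT-Parental cells, mouse breast cancer cells (EO771 is a mammary carcinoma line) that both carry the tdT tag and the genotype label WT. Both lines had been kept in RPMI 1640 with 10% fetal bovine serum and were harvested after 48 h in flasks, at about 75% confluence. The titles of the Parental libraries also carry the tag Ac6, which the labels do not explain. The labels do not say how LM2 was derived, whether each line is 1 clone, or whether its 3 libraries are separate cultures. The p-values therefore measure only the spread between these libraries, which may be technical.

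The mitochondrial ribosome translates the few mRNAs that the mitochondrial genome still encodes, all of them for subunits of the respiratory chain and the ATP synthase. Its large subunit joins amino acids and its small subunit reads the mRNA. The RNAs of the ribosome are made inside the organelle, whereas its proteins are made in the cytosol and imported, so the nucleus supplies many different proteins that end up in a single particle. Some of these proteins have a counterpart in the bacterial ribosome. Others were added during the evolution of mitochondria and are found in no bacterial ribosome.

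Estimated counts per library added up to between 33922699 and 45849019, and the lowest count of any member in any library was 301. Libraries of the same line correlated at r of 0.991 to 0.994 over tested genes, and libraries of different lines at 0.962 to 0.964. Of the markers of mammary epithelium, Krt8, an intermediate filament keratin, was high in both lines (561 to 580 CPM, counts scaled to a common library size, in LM2 and 414 to 427 CPM in Parental), Cdh1 and Krt18 stayed below 1 CPM in every library, and Epcam, an epithelial adhesion protein, had 14.6 to 15.3 CPM in LM2 and 0.0991 to 0.198 CPM in Parental. The 8 leukocyte markers summed to 3.47 to 4.06 CPM in LM2 and 4.42 to 4.66 CPM in Parental, with Adgre1 at 0 in all libraries. The 7 lung epithelium markers summed to 3.20 to 4.28 CPM in LM2 and 1.03 to 1.34 CPM in Parental, with Sftpc, Sftpa1 and Scgb1a1 at 0. The 5 fibroblast markers summed to 171 to 193 CPM in LM2 and 127 to 129.6 CPM in Parental. Nearly all of that was Pdgfra, a growth factor receptor (169.9 to 192 CPM in LM2 and 125 to 128 CPM in Parental), while Dcn and Lum were below 1 CPM in every library. Of the 3 fibroblast markers with a test, 2 were called higher in LM2 and 1 lower (edgeR quasi-likelihood test, Benjamini-Hochberg adjusted p below 0.05). The lower one had a log2 fold change (LM2 over Parental) of -2.006. The part of the genes in these lists in the results was not tested. In such bulk RNA, fewer cells of a type and less RNA per cell cannot be told apart.

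Most mitochondrial ribosomal protein genes were lower in LM2 than in Parental cells, each by a modest amount. Of the 78 members, 48 were called lower in LM2, 8 were called higher and 22 did not pass the test (edgeR quasi-likelihood test, Benjamini-Hochberg adjusted p below 0.05 over all tested genes). The same fit called 31.1% of all tested genes lower and 31.4% higher, so the members' share of lower calls was above that background and their share of higher calls below it. The median log2 fold change of the members (LM2 over Parental) was -0.14, a difference of -9.26%, against -0.0037 for all tested genes. The members ranged from -0.66 to 0.24, 61 of them below 0. The LM2 and Parental libraries did not overlap for 52 members in the lower direction and 7 in the higher direction, whereas 33.6% of all tested genes did not overlap in the lower direction and 33.4% in the higher. Among the 7481 tested genes whose mean level lay in the members' own range of 10.42 to 170.7 CPM, 37.9% were called lower, 34.3% were called higher, and the median was -0.02.

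**Figure D1:**
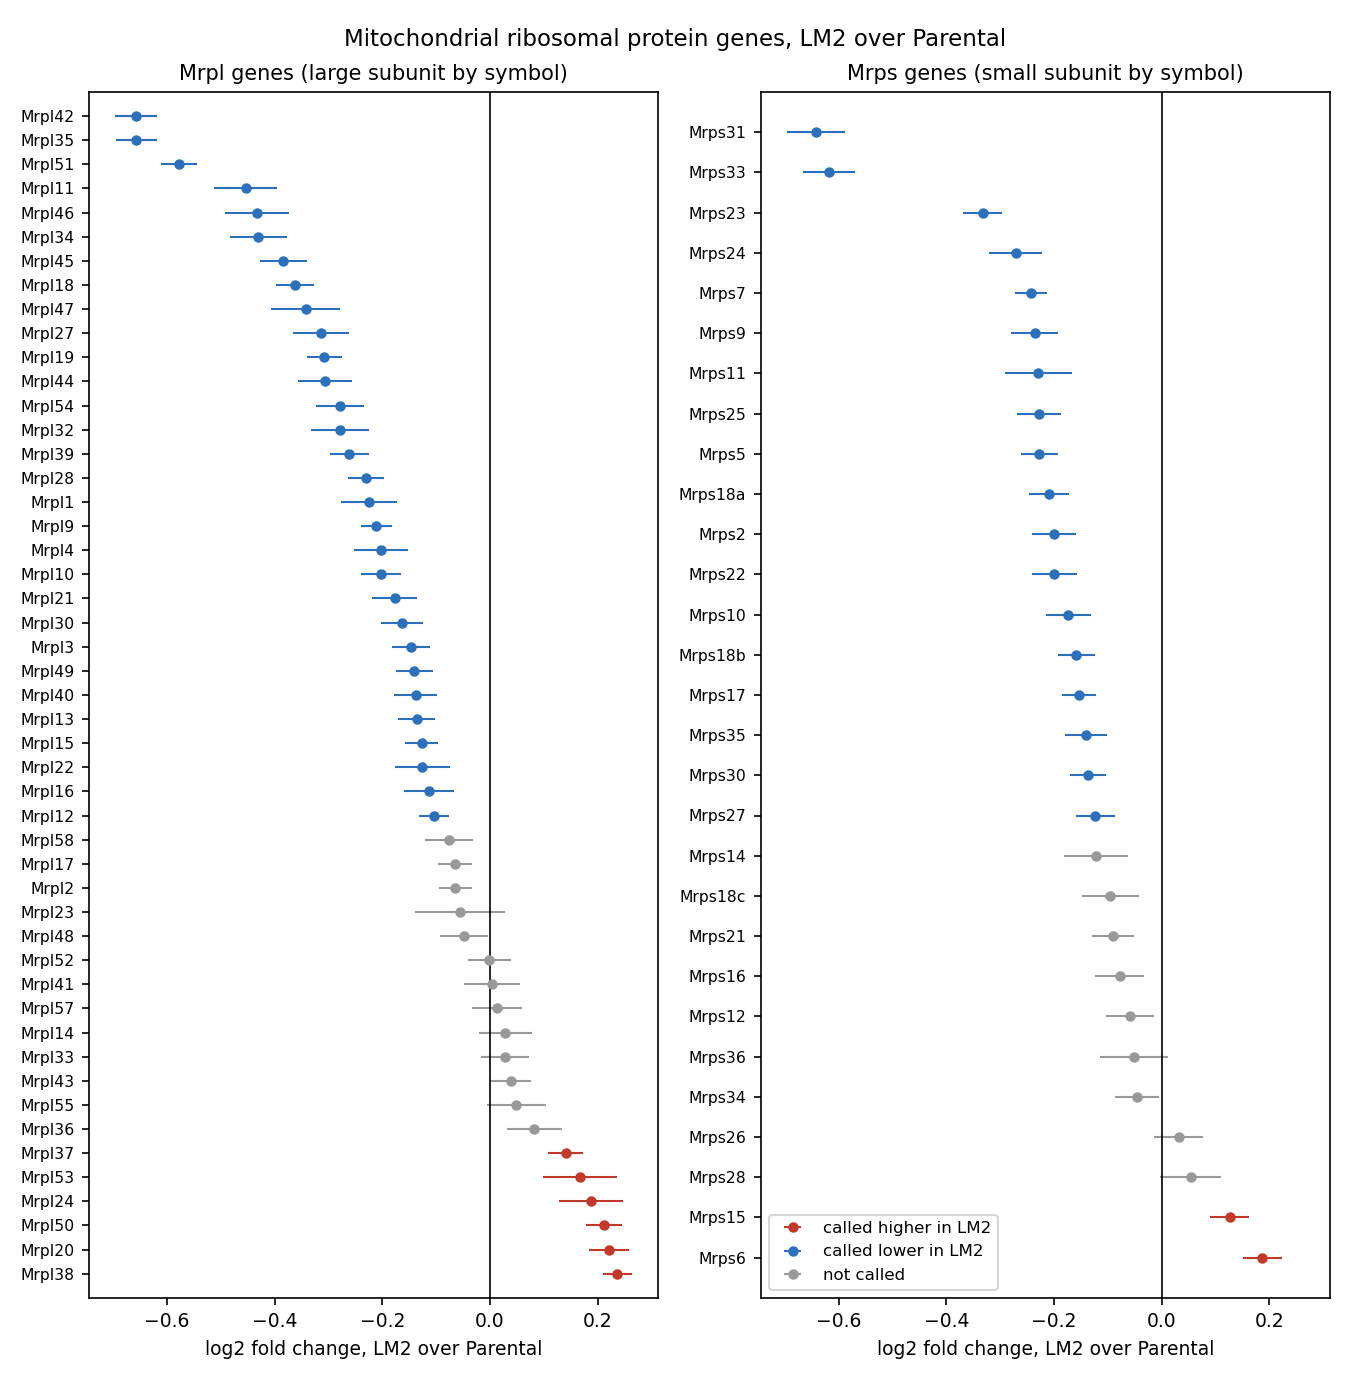
Log2 fold change (LM2 over Parental, x axis) of each of the 78 members, 49 Mrpl genes on the left and 29 Mrps genes on the right, with bars for the standard error. Blue points are the 48 members called lower, red points the 8 called higher and grey points the 22 not called; most points lie to the left of 0, within -0.66 to 0.24.

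The decrease was present in every LM2 library. Relative to the mean of the Parental libraries, the median member stood at -0.10, -0.16 and -0.17 on the log2 scale in the 3 LM2 libraries, against 0.0084, 0.0046 and -0.015 in the 3 Parental libraries. All LM2 libraries were thus below all Parental libraries. Over the same libraries the median of all tested genes lay between -0.0052 and 0.0031. The spread among members was also narrow, with an interquartile range of the log2 fold changes of 0.192, against 0.491 for all tested genes. All tested genes include many at lower levels. The quartiles of tested genes in the members' CPM range were -0.20 and 0.19, and those of the members -0.24 and -0.05.

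Genes of both subunits were mostly lower, and the difference between the subunits was not tested. Of the 49 Mrpl genes, 30 were called lower, 6 higher and 13 did not pass, with a median log2 fold change of -0.14. Of the 29 Mrps genes, 18 were called lower, 2 higher and 9 did not pass, with a median of -0.15. All tested genes had shares of 31.1% lower and 31.4% higher. Summed over the Mrpl genes, TPM (the level per transcript length) came to 4785, 4770 and 4650 in the LM2 libraries and 5136, 5116 and 5038 in the Parental libraries. Summed over the Mrps genes they came to 2713, 2673 and 2642 TPM in LM2 and 2893, 2876 and 2848 TPM in Parental. For each subunit the highest LM2 library was below the lowest Parental library. The ratio of the Mrpl sum to the Mrps sum was 1.77 ± 0.013 in LM2 and 1.77 ± 0.0051 in Parental (SD, n = 3 each). All members together had 7411 ± 107 TPM in LM2 and 7969 ± 74.5 TPM in Parental, a difference of -7.01%. The median TPM of the Mrpl genes ran the other way from their sum, at 80.7 ± 1.67 in LM2 and 77.9 ± 2.34 in Parental, and these ranges overlapped between the lines.

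Symbols do not always give the place in the particle. In the mammalian structure, Mrps30 and Mrps18a sit in the large subunit, and Mrps36 is now assigned to the 2-oxoglutarate dehydrogenase complex. For the counts that follow, the background over all tested genes was 31.1% lower and 31.4% higher. Grouped by structure, the large subunit had 32 of 51 genes lower and 6 higher (median -0.14), and the small subunit 16 of 26 lower and 2 higher (median -0.16). Large-subunit proteins with a bacterial counterpart had 21 of 30 genes lower and 2 higher (median -0.16), and those without had 11 of 21 lower and 4 higher (median -0.14). For the small subunit the counts were 8 of 16 lower and 2 higher with a counterpart (median -0.14), and 8 of 10 lower and none higher without (median -0.18). The difference between these classes was not tested.

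Proteins without a bacterial counterpart included several of the largest decreases. Mrpl42, a large-subunit protein added in mitochondria, had 68.9, 63.2 and 60.4 CPM in the LM2 libraries, against 99.6, 102 and 102 CPM in the Parental libraries. Its log2 fold change was -0.66 ± 0.04 (SE). Mrpl51, another large-subunit protein of this kind, had 64.4, 61.1 and 61.0 CPM in LM2, against 93.9, 94.9 and 89.6 CPM in Parental (log2 fold change -0.58 ± 0.03). In both genes every LM2 library lay far below every Parental library. Mrps31 and Mrps33 belong to the small subunit and also lack a bacterial counterpart. Mrps31 had 21.3, 19.9 and 20.6 CPM in LM2, against 31.7, 34.0 and 30.8 CPM in Parental (log2 fold change -0.64 ± 0.05). Mrps33 had 34.8, 30.5 and 31.8 CPM in LM2, against 50.7, 48.1 and 50.1 CPM in Parental (log2 fold change -0.62 ± 0.05). Adjusted p-values of these 4 genes were between 2.03e-12 and 6.75e-10 (edgeR quasi-likelihood test, Benjamini-Hochberg adjustment).

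Among large-subunit proteins that bacteria share, Mrpl35 fell most, with 38.4, 38.3 and 37.0 CPM in LM2, against 59.7, 58.1 and 61.5 CPM in Parental (log2 fold change -0.66 ± 0.04). Mrpl34, the counterpart of a small bacterial protein of the large subunit, had 25.2, 24.8 and 23.0 CPM in LM2, against 34.3, 32.7 and 31.4 CPM in Parental (log2 fold change -0.43 ± 0.05). Mrpl11 belongs to the base of the flexible stalk on which translation factors dock. It had 25.5, 25.3 and 21.6 CPM in LM2, against 32.2, 33.4 and 33.3 CPM in Parental (log2 fold change -0.45 ± 0.06). LM2 replicate 3 stood below the other two, and all were below Parental. Adjusted p-values of these 3 genes were between 1.7e-12 and 7.54e-07 (edgeR quasi-likelihood test, Benjamini-Hochberg adjustment).

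The rest of the stalk was called in every member, mostly lower. Mrpl10, which carries the copies of Mrpl12, had 58.0, 53.1 and 58.0 CPM in LM2, against 64.0, 66.8 and 63.9 CPM in Parental (log2 fold change -0.20 ± 0.04). Mrpl12, which in human cells also binds the mitochondrial RNA polymerase, had 165, 168 and 160.3 CPM in LM2, against 172, 184 and 175 CPM in Parental (log2 fold change -0.10 ± 0.03). The groups did not overlap in either gene. Mrpl54 had 39.6, 35.9 and 37.0 CPM in LM2, against 46.6, 46.0 and 43.8 CPM in Parental (log2 fold change -0.28 ± 0.04). Mrpl53, the exception, had 14.3, 15.8 and 17.0 CPM in LM2, against 14.0, 13.2 and 14.8 CPM in Parental, with a log2 fold change of 0.17 ± 0.07 (adjusted p = 0.037, edgeR quasi-likelihood test with Benjamini-Hochberg adjustment). Its lines overlapped, 84.4% of its 31-base words also occurred in transcripts of other genes, and its call was lost in 10 of 17 alternative settings, in which its adjusted p reached 0.252. The median of the 5 stalk genes was -0.20, with 4 called lower and 1 higher. Tested genes in the members' CPM range were called lower in 37.9% and higher in 34.3% of cases, and a group of 5 genes is small.

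In the central protuberance, the crown of the large subunit, 3 of 8 genes were lower, 1 was higher and 4 did not pass, with a median of -0.06. The share of lower calls, 37.5%, was close to background. It was 31.1% over all tested genes and 37.9% over tested genes in the members' CPM range. Mrpl46 had 17.3, 17.0 and 15.2 CPM in LM2, against 22.1, 21.7 and 22.9 CPM in Parental (log2 fold change -0.43 ± 0.06). Mrpl18 had 74.0, 69.2 and 66.6 CPM in LM2, against 88.1, 90.6 and 90.9 CPM in Parental (log2 fold change -0.36 ± 0.04). Mrpl38 moved the opposite way and was the largest increase among the members. It had 137, 133 and 136 CPM in LM2, against 114, 113 and 118 CPM in Parental (log2 fold change 0.24 ± 0.03). Its groups were well separated. Mrpl58, a hydrolase that can release stalled peptides and was built into the large subunit, had 40.0, 37.8 and 36.7 CPM in LM2, against 41.2, 40.0 and 39.5 CPM in Parental, and did not pass (log2 fold change -0.08 ± 0.04).

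Around the tunnel exit, where the new protein leaves toward the inner membrane, 3 of 6 genes were lower and 1 was higher. Of tested genes in the members' CPM range, 37.9% were called lower and 34.3% higher. Mrpl45, which in mammals ties the ribosome to the inner membrane, had 38.1, 36.1 and 34.6 CPM in LM2, against 46.7, 48.3 and 46.9 CPM in Parental (log2 fold change -0.38 ± 0.04). Mrpl24, whose bacterial counterpart is an early-binding protein of the large subunit, had 17.3, 18.4 and 18.9 CPM in LM2, against 16.4, 15.0 and 16.5 CPM in Parental (log2 fold change 0.19 ± 0.06). The highest Parental library of Mrpl24 was just below the lowest of LM2, and 26.9% of its 31-base words occurred in transcripts of other genes. Mrpl47 had 21.5, 18.6 and 20.2 CPM in LM2, against 27.5, 23.7 and 25.2 CPM in Parental (log2 fold change -0.34 ± 0.06).

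The other members called higher were on several parts of the particle. Mrpl20, the counterpart of a bacterial assembly protein, had 86.0, 78.8 and 77.3 CPM in LM2, against 68.4, 69.1 and 70.1 CPM in Parental (log2 fold change 0.22 ± 0.04). Mrpl50 had 81.2, 78.1 and 76.4 CPM in LM2, against 67.4, 69.6 and 66.6 CPM in Parental (log2 fold change 0.21 ± 0.03). Mrpl37 had 74.7, 73.7 and 72.8 CPM in LM2, against 64.8, 68.9 and 67.1 CPM in Parental (log2 fold change 0.14 ± 0.03). Mrpl50 and Mrpl37 are large-subunit proteins without a bacterial counterpart, and both groups were separate in each. In the small subunit, Mrps6 had 86.4, 80.9 and 90.0 CPM in LM2, against 74.4, 76.4 and 75.5 CPM in Parental (log2 fold change 0.19 ± 0.04). Mrps15, which in bacteria binds the small ribosomal RNA early, had 54.1, 54.2 and 57.0 CPM in LM2, against 50.02, 49.9 and 51.7 CPM in Parental (log2 fold change 0.13 ± 0.04). Adjusted p-values of these 5 genes were between 9.63e-06 and 0.00459 (edgeR quasi-likelihood test, Benjamini-Hochberg adjustment).

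**Figure D2:**
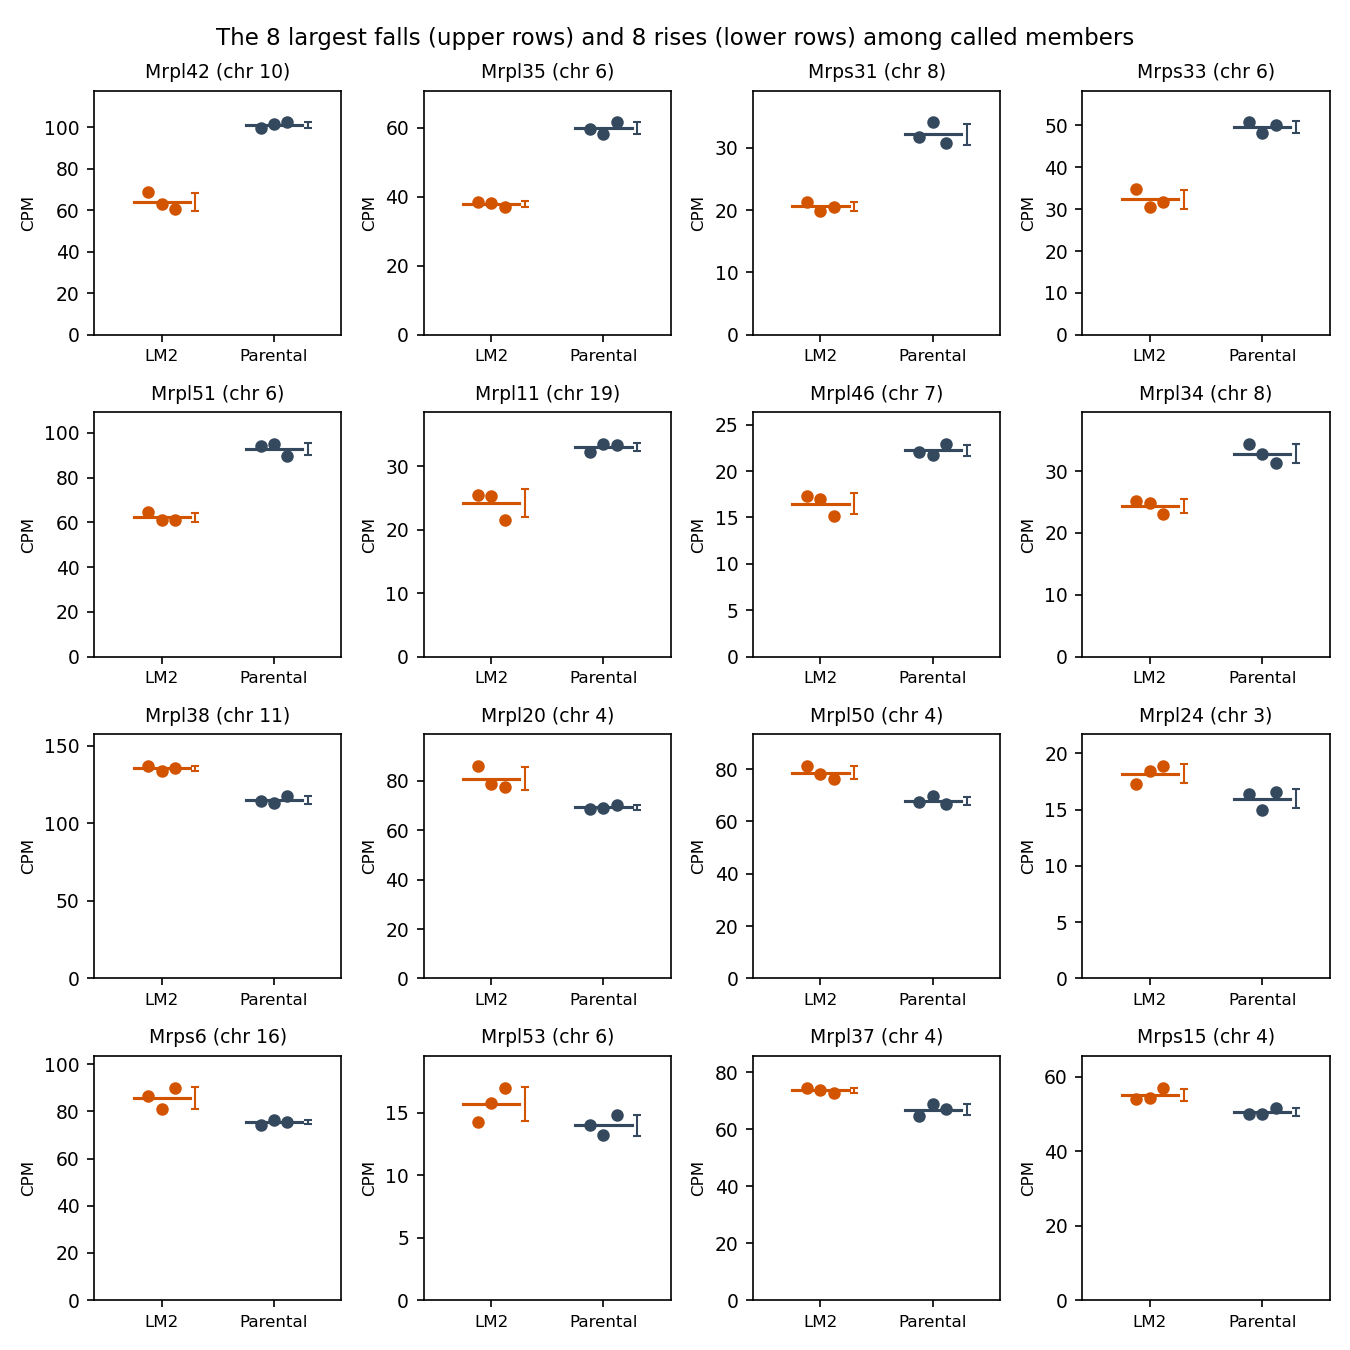
CPM (y axis, from 0) of the 8 members with the largest falls (upper rows) and the 8 called higher (lower rows), with 1 point per library, LM2 on the left and Parental on the right of each panel; horizontal lines are means and bars the SD of 3 libraries. Points of the lines are separate in every panel except that of Mrpl53.

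Members with close relatives or other functions were measured separately. The paralogs Mrps18a, Mrps18b and Mrps18c had log2 fold changes of -0.21 ± 0.04, -0.16 ± 0.03 and -0.10 ± 0.05, the last of which did not pass. They occupy different sites on the ribosome, and 0.0272%, 16.7% and 18.4% of their 31-base words occurred in transcripts of other genes. Mrps30, first described in connection with cell death, had 62.3, 60.1 and 60.1 CPM in LM2, against 67.6, 67.1 and 65.9 CPM in Parental (log2 fold change -0.14 ± 0.03). Mrps36 had 17.7, 15.3 and 16.2 CPM in LM2, against 17.9, 16.9 and 16.2 CPM in Parental, and did not pass (log2 fold change -0.05 ± 0.06). Its libraries overlapped.

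Per length, the members spanned a wide range of levels and kept nearly the same order in both lines. Mean TPM ran from 15.7 to 301.9 in LM2 and from 18.4 to 317.6 in Parental, and the order correlated between the lines (Spearman rho 0.977 over 78 genes, a description across genes of the same libraries). Mrpl52, a large-subunit protein, was highest in LM2 with 301.9 ± 9.5 TPM, against 295 ± 8.3 TPM in Parental. Mrps21 was next in LM2 with 267 ± 14 TPM, against 277 ± 7.8 TPM in Parental. Mrpl20 and Mrpl12 followed in LM2 with 226 ± 11 and 223 ± 6.6 TPM, against 191 ± 2.6 and 235 ± 8.3 TPM in Parental. In LM2 Mrpl20 and Mrpl12 overlapped each other, whereas in Parental Mrpl20 was below Mrpl12 in every library. Mrpl42 had 205 ± 12 TPM in LM2, against 317.6 ± 3.0 TPM in Parental, where it was the highest member. It thus ranked 5 in LM2 and 1 in Parental. At the low end, Mrpl1, a protein of a mobile arm of the large subunit, had 15.7 ± 0.57 TPM in LM2, against 18.4 ± 1.1 TPM in Parental, and was last in both lines. Mrpl47 (23.0 ± 1.2 TPM in LM2, 29.2 ± 4.9 TPM in Parental), Mrpl45 (24.6 ± 0.84 TPM in LM2, 31.4 ± 0.46 TPM in Parental) and Mrpl24 (27.9 ± 2.9 TPM in LM2, 23.4 ± 1.1 TPM in Parental) were also near the bottom. The spread of a member between libraries of a line was small, with a median SD of 3.79% of the mean CPM in LM2 and 2.86% in Parental.

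**Figure D3:**
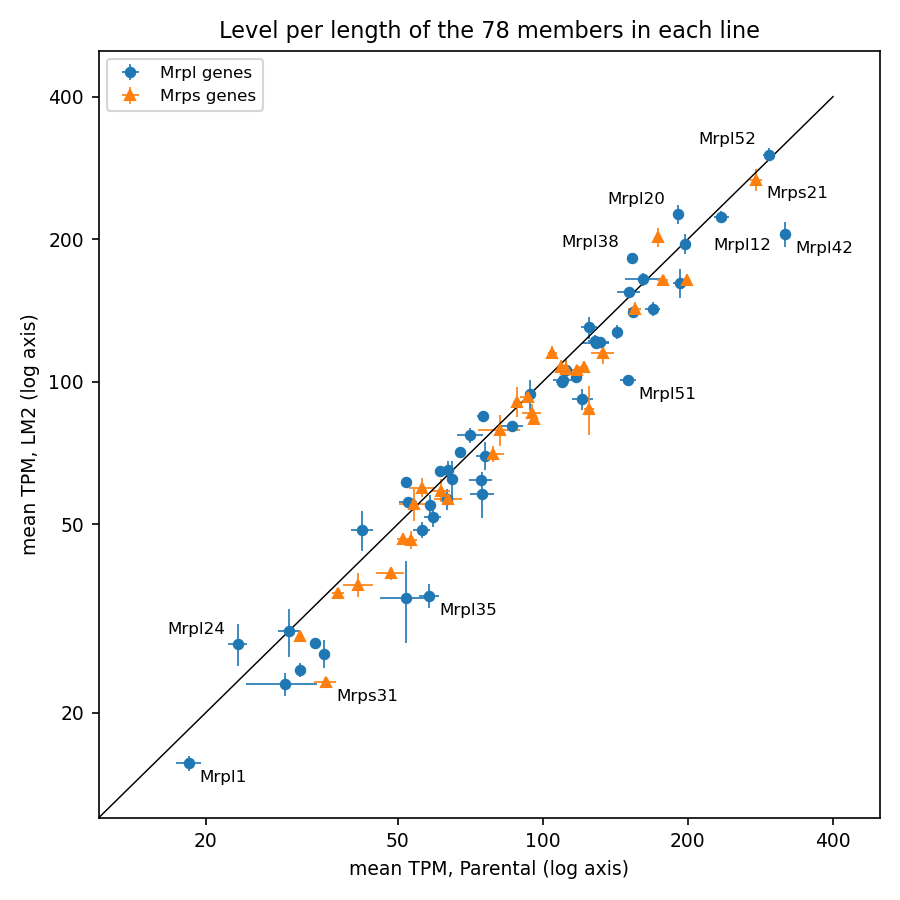
Mean TPM in LM2 (y axis, log) against mean TPM in Parental (x axis, log) for the 78 members, with bars for the SD of 3 libraries, circles for Mrpl genes and triangles for Mrps genes; the line marks equal levels. The order is nearly kept, while Mrpl42, Mrpl51, Mrpl35 and Mrps31 lie below the line and Mrpl20 and Mrpl38 above it.

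The largest decreases were mostly on a few chromosomes. The largest increase, that of Mrpl38, was on chromosome 11, and Mrpl24 and Mrps6, also called higher, were on chromosomes 3 and 16. The lines differed over whole chromosomes, which is given here only as far as the members sit on them. On chromosome 4 the median tested gene was 0.39 higher in LM2 on the log2 scale and 73.6% of tested genes were called higher. All 4 members there (Mrpl20, Mrpl50, Mrpl37 and Mrps15) were called higher, with a median of 0.18, yet each lay below the median of its chromosome. On chromosome 8 the median tested gene was at -0.31, 64.5% of tested genes were called lower, and Mrps31 and Mrpl34 stood at -0.64 and -0.43. On chromosome 10 it was at -0.33, 62.8% of tested genes were called lower, and Mrpl42 and Mrpl54 stood at -0.66 and -0.28. On chromosome 6 it was at -0.18, with 49.4% of tested genes called lower and 19.3% higher, and 6 of 7 members were lower and 1 was higher, with a median of -0.31. That last median became -0.55 when effective transcript lengths were used as an offset. These 4 chromosomes held 15 of the 78 members, including 5 of the 8 called higher and the 5 largest decreases. Of those 5 called higher, Mrpl53 was on chromosome 6, whose median tested gene was below 0.

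Away from these chromosomes most members were lower too. Of the 63 other members, 38 were called lower, 3 higher and 22 did not pass, with a median of -0.14 and a range of -0.45 to 0.24. Of the 10437 tested genes off those 4 chromosomes, 27.8% were called lower and 31.2% higher, with a median of 0.0065. On each of the 17 chromosomes that hold members, the median member was below the median tested gene, with differences of -0.227 to -0.0385 on the log2 scale. Of the 78 members, 66 were below the median of their own chromosome, and the median difference over all members was -0.18. Against the median of their 20 nearest tested neighbours (10 on each side), 62 of 78 were lower, with a median difference of -0.18. Mrpl15, Mrpl21 and Mrps28, near the end of a chromosome, had only 10, 11 and 13 such neighbours. The correlation of the members with the median of their chromosome was r = 0.594 over 78 genes, given as a description because genes of a chromosome share it.

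Chromosomes differed in how many members were called. Chromosome 11, with 11 members, had 8 lower and 1 higher (median -0.20), while 30.3% of all its tested genes were lower and 32.0% higher (median -0.0054). Chromosome 17, with 8 members, had 5 lower and none higher (median -0.17), while 27.2% of all its tested genes were lower and 31.7% higher (median 0.03), and all 8 lay below the chromosome's median. Chromosome 14 had 3 members, and none of them was called (median -0.0012, all tested genes 0.04). Mrpl14, on chromosome 17, was the member closest to the median of its chromosome. The 4 members farthest from it, all lower, were Mrpl11 (-0.52 from that median), Mrpl35 (-0.48), Mrpl46 (-0.47) and Mrps33 (-0.44). The neighbours of Mrpl11 and Mrpl46 had medians of -0.00081 and -0.02, whereas those of Mrpl35 and Mrps33 had medians of -0.22 and -0.21.

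**Figure D4:**
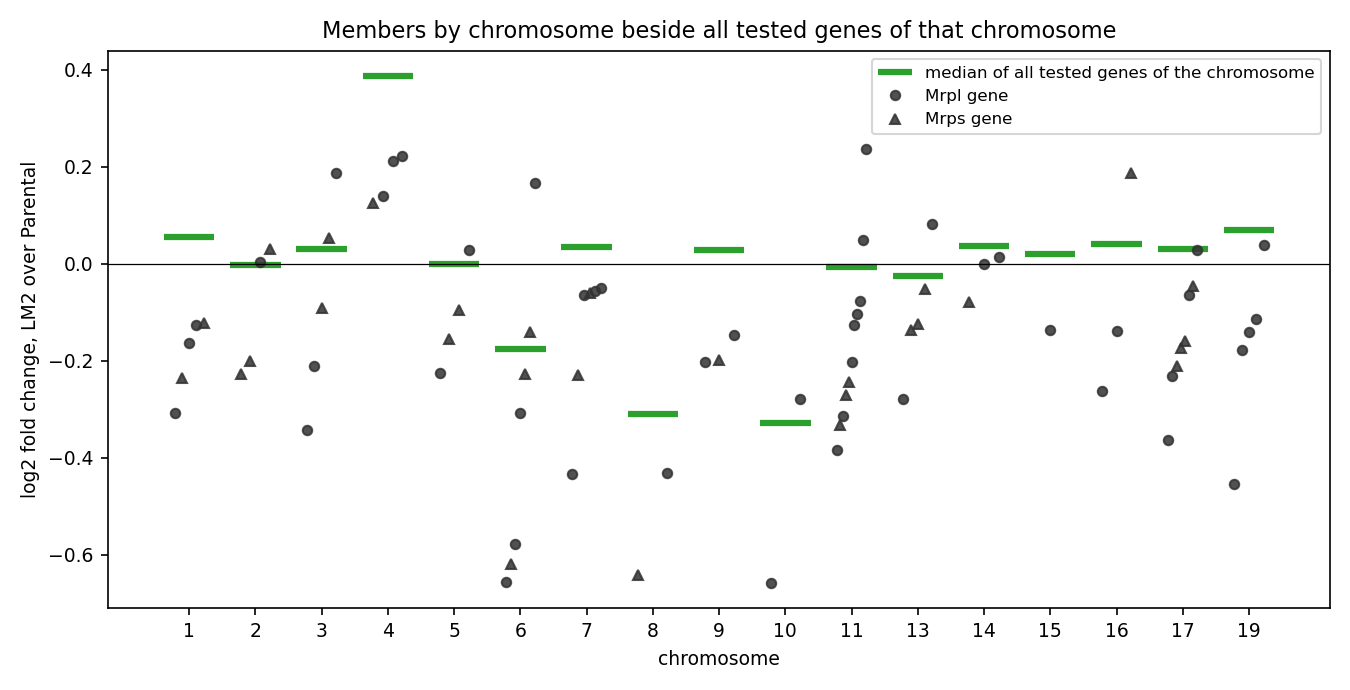
Log2 fold change (LM2 over Parental, y axis) of each member by chromosome (x axis), with circles for Mrpl genes and triangles for Mrps genes; green bars give the median of all tested genes of that chromosome. On chromosome 4 all 4 members are above 0 but below the green bar, and over all chromosomes 66 of 78 members are below it.

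Promoters of genes for mitochondrial proteins are known for binding sites of the factors NRF1, GABPA (of the ETS family) and YY1. RefSeq promoter windows, which run from 250 bases before to 50 bases after a start, were matched to 69 of the 78 members (75 windows). They were searched on both strands for CCGGAAG (ETS and GABPA) and for an NRF1 motif of 10 letters and a YY1 motif of 11 letters, both spelled out in capitals in the windows printed here, and no matches overlapped. The ETS letters were in 34.7% of the members' windows, against 8.86% of all 32851 windows and 21.1% of the windows of tested genes in the members' CPM range. The YY1 letters were in 6.67% of the members' windows, against 0.633% of all and 1.78% in that range. The NRF1 letters were in 4% of the members' windows, against 0.971% of all and 2.36% in that range. A match describes the letters and does not show binding.

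The ETS letters were found in members of every class. They were present in 13 of 42 members called lower (31%), 1 of 7 called higher (14.3%) and 12 of 20 not passed (60%). Counted per gene in the same way, 24.7% of tested genes in the members' CPM range held them. The share was thus highest in the members that did not pass. The NRF1 letters were present in Mrpl9, Mrpl32 and Mrpl39, all called lower (log2 fold changes -0.21, -0.28 and -0.26). The YY1 letters were present in Mrpl35, Mrps18a, Mrps11 and Mrps27, called lower (log2 fold changes -0.66, -0.21, -0.23 and -0.12), and in Mrpl37, called higher (0.14).

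5 windows are shown because they hold these letters in members that moved in different directions and lie on different chromosomes (RefSeq, build GRCm38.p6, 5′ to 3′ along the gene's strand). Capitals mark the letters searched for: the NRF1 motif is the run in Mrpl9, which reads the same on both strands, and the YY1 motif is the run in Mrpl35. In Mrpl9 (chr3:94443086-94443385, plus strand) the NRF1 letters begin 28 bases before the start. In Mrpl35 (chr6:71823735-71824034, minus strand) and Mrpl37 (chr4:107066817-107067116, minus strand) the YY1 letters begin at bases 24 and 27 of the transcript. In Mrps18a (chr17:46110754-46111053, plus strand) the ETS letters begin 26 bases before the start and the YY1 letters at base 12 of the transcript. The window of Mrps11 (chr7:78782881-78783180, plus strand) holds the YY1 letters in the reverse direction 110 bases before the start, and also covers the start of Mrpl46.
Mrpl9: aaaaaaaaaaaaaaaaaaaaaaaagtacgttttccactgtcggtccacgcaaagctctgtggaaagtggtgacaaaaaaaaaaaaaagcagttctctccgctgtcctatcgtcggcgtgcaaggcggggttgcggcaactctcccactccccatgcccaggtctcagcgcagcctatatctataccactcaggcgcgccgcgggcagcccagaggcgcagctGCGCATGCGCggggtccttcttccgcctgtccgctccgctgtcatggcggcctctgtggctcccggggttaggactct
Mrpl35: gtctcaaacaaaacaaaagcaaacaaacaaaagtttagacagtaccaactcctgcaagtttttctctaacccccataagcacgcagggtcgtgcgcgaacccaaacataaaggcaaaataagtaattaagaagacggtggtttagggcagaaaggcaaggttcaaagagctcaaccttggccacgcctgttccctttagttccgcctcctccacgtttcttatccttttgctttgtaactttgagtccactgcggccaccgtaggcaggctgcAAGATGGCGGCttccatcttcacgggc
Mrpl37: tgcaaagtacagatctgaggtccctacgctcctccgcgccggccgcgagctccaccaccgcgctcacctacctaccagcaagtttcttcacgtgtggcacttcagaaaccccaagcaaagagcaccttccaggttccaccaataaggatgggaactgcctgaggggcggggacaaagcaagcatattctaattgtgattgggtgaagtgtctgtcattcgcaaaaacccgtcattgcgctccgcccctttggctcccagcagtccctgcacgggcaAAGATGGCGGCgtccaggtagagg
Mrps18a: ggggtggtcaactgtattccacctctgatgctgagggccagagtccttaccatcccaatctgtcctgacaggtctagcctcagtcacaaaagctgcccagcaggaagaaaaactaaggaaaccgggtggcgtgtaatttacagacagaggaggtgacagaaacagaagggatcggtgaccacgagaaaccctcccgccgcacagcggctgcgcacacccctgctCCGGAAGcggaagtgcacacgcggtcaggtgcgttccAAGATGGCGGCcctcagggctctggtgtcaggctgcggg
Mrps11: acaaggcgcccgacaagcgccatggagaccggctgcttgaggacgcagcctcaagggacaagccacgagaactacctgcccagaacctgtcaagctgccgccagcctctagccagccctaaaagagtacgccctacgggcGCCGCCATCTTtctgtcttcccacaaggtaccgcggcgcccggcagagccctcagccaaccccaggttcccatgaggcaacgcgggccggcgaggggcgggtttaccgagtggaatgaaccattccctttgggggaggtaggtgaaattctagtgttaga

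Mrpl46 and Mrps11 are the only pair of members that are next to each other among protein-coding genes. They lie on chromosome 7 and are read in opposite directions, with starts 42 bases apart and 141 bases shared between their windows. Mrps11, a small-subunit protein with a bacterial counterpart, had 20.3, 18.2 and 18.4 CPM in LM2, against 23.2, 23.0 and 20.4 CPM in Parental. Both genes were called lower, at log2 fold changes of -0.43 ± 0.06 for Mrpl46 and -0.23 ± 0.06 for Mrps11. The strand setting of kallisto is unknown here, and reads from any overlap of the pair cannot be told apart.

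The 5 proteins of the mitochondrial ribosome without an Mrp symbol were called in both directions. Ptcd3, which binds RNA on the small subunit, had 149, 148 and 144 CPM in LM2, against 222, 218 and 213 CPM in Parental (log2 fold change -0.57 ± 0.03, chromosome 6). Gadd45gip1, of the large subunit, had 66.1, 63.8 and 64.2 CPM in LM2, against 96.9, 95.4 and 91.3 CPM in Parental (log2 fold change -0.55 ± 0.03, chromosome 8). Aurkaip1, of the small subunit, had 59.4, 57.0 and 54.3 CPM in LM2, against 47.5, 46.1 and 46.0 CPM in Parental (log2 fold change 0.29 ± 0.04, chromosome 4). Each of these 3 genes lay on a chromosome whose median tested gene was on the same side of 0. Dap3 was called lower (log2 fold change -0.13 ± 0.03) and Chchd1 did not pass (-0.08 ± 0.05), both of the small subunit.

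Genes that build and serve the mitochondrial ribosome were also called lower more often than higher. Over all tested genes, 31.1% were called lower and 31.4% higher. Of 28 assembly factors, 15 were called lower, 2 higher and 11 did not pass (median log2 fold change -0.16). The largest change was that of Rpusd3, a pseudouridine synthase (log2 fold change -0.72 ± 0.09, chromosome 6). The GTPases Mtg1 and Gtpbp10, which act on the large subunit, followed (-0.55 ± 0.09, chromosome 7, and -0.52 ± 0.06, chromosome 5). The 2 higher ones were Lyrm2 (0.39 ± 0.11) and the protease subunit Afg3l2 (0.09 ± 0.03). Whether Lyrm2 acts in the assembly of this ribosome was not tested here, so its place in the list is uncertain. Of 16 tested translation factors, 10 were lower, none higher and 6 did not pass (median -0.15). Tsfm, the exchange factor of mitochondrial elongation factor Tu, had 39.3, 36.8 and 40.1 CPM in LM2, against 58.0, 60.1 and 63.4 CPM in Parental (log2 fold change -0.64 ± 0.04, chromosome 10). Slirp, an RNA-binding partner of mitochondrial mRNAs, and Gfm2, the recycling factor, stood at -0.44 ± 0.04 (chromosome 12) and -0.43 ± 0.05 (chromosome 13). Rpusd3 and Tsfm lay on chromosomes whose median tested gene was itself lower, at -0.18 and -0.33. The medians of chromosomes 5, 7 and 13 were -0.000315, 0.03 and -0.02.

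Of 20 mitochondrial aminoacyl-tRNA synthetases and related enzymes, 10 were lower, 1 higher and 9 did not pass (median -0.13). Qrsl1, a subunit of the amidotransferase that makes mitochondrial glutaminyl-tRNA, had 10.8, 12.7 and 10.3 CPM in LM2, against 22.2, 22.6 and 23.0 CPM in Parental (log2 fold change -1.01 ± 0.07, chromosome 10). Cars2, the cysteine enzyme, stood at -0.69 ± 0.05 (chromosome 8) and Pars2, the proline enzyme, at 0.31 ± 0.06 (chromosome 4). Of 24 genes of mitochondrial DNA upkeep, transcription and RNA processing, 14 were lower, 2 higher and 8 did not pass (median -0.18). Tfam, which packs and transcribes mitochondrial DNA, had 60.7, 55.7 and 56.0 CPM in LM2, against 82.1, 79.6 and 82.7 CPM in Parental (log2 fold change -0.50 ± 0.04, chromosome 10). The helicase Supv3l1 stood at -0.51 ± 0.04 (chromosome 10) and the single-strand binding protein Ssbp1 at -0.45 ± 0.04 (chromosome 6). Qrsl1, Cars2, Pars2, Tfam, Supv3l1 and Ssbp1 each lay on a chromosome whose median tested gene was on the same side of 0. The cytosolic ribosomal proteins had 54 of 77 tested genes lower and 5 higher (median -0.10), and the nuclear genes of oxidative phosphorylation 41 of 80 lower and 15 higher (median -0.08). The shares over all tested genes were 31.1% lower and 31.4% higher.

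**Figure D5:**
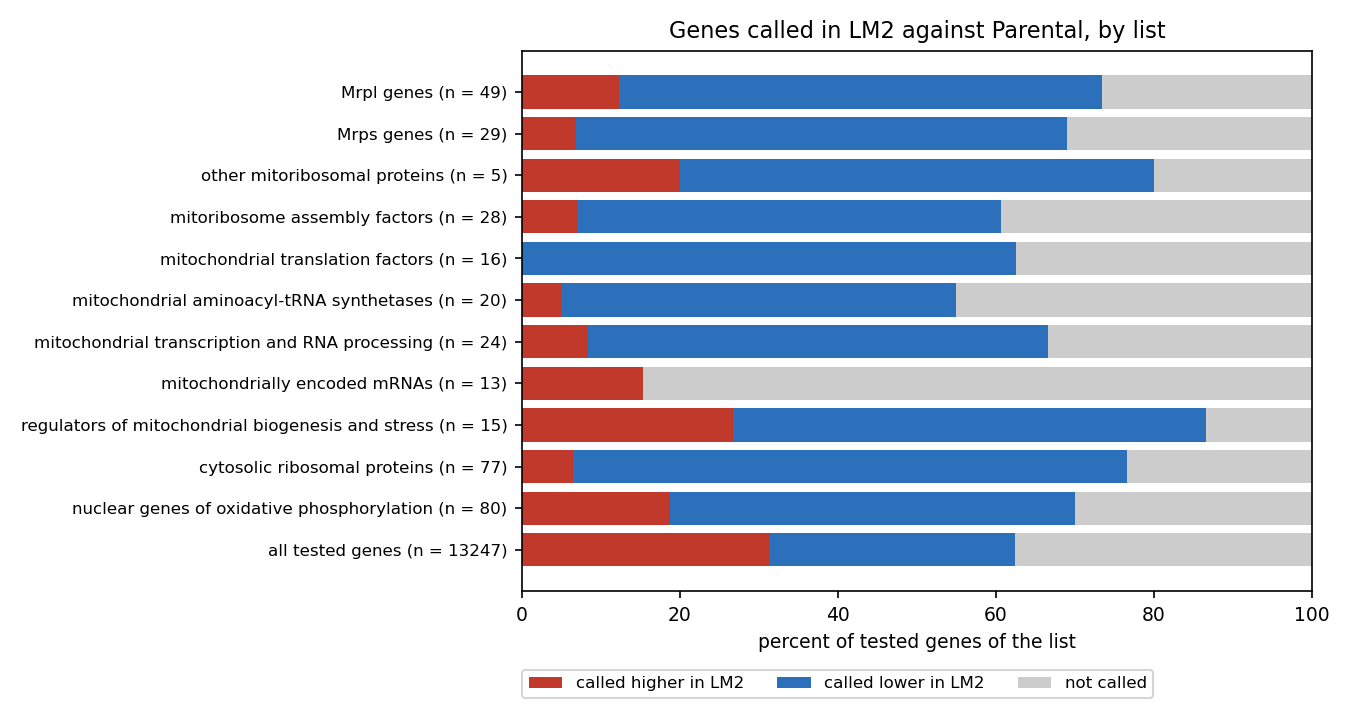
Percent of the tested genes of each list (x axis) called higher in LM2 (red), called lower (blue) and not called (grey), for the Mrpl and Mrps genes, related lists and all tested genes. Blue exceeds red in the Mrpl and Mrps genes and in each related list but that of mitochondrially encoded mRNAs, while over all 13247 tested genes the shares are 31.1% and 31.4%.

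None of the mRNAs that the mitochondrial ribosome translates was called lower. Summed over the 13 mitochondrially encoded mRNAs, the level was 12769, 12423 and 14197 CPM in LM2, against 10599, 11326 and 12425 CPM in Parental. Across all tested genes, 31.4% were called higher and 31.1% lower. Of the 13, 2 (15.4%) were called higher, none lower and 11 did not pass, with a median log2 fold change of 0.19. The first of these, mt-Co1, a subunit of complex IV, had 3882, 3913 and 4509 CPM in LM2, against 3088, 3266 and 3588 CPM in Parental (log2 fold change 0.31 ± 0.09, adjusted p = 0.0453, edgeR quasi-likelihood test with Benjamini-Hochberg adjustment). The other, mt-Nd4, a subunit of complex I, had 1068, 1057 and 1132 CPM in LM2, against 911, 946 and 1034 CPM in Parental (log2 fold change 0.17 ± 0.05, adjusted p = 0.0318, same test). The lines did not overlap in either, and they did overlap in the sum. This count ran between 0 and 9 over the alternative settings. It was 0 without LM2 replicate 1, without LM2 replicate 3 or without Parental replicate 2, and 1 without LM2 replicate 2 or Parental replicate 1. It was 8 without Parental replicate 3 and also 8 with the replicate number as a block.

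Transcript use within the members differed little between the lines. Of 78 members, 75 had the same leading transcript in both lines, and in 45 that transcript held over 80% of the gene's TPM in both. Of the 343 transcripts of members, none differed in its share of the gene's TPM by more than 10 percentage points without overlap between the lines. In the authors' deposited table of log2 fold changes, 76 members had a value, of which 56 were below 0, 15 above 0 and 5 at 0, with a median of -0.14. In the authors' deposited table Mrpl19 differed most from the value computed here, at -0.62 against -0.31 here. Of its 31-base words, 37.9% occurred in transcripts of other genes. Per length, it had 34.9 ± 6.9 TPM in LM2 and 52.1 ± 6.2 TPM in Parental, against 57.1 and 70.7 mean CPM. The cause of the difference between the 2 values was not tested.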

How the data were processed

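RNA of 3 LM2 and 3 Parental libraries was sequenced from mRNA-kit libraries, per the labels. The authors deposited estimated counts, TPM and lengths of 117486 transcripts, made with kallisto 0.46.2 on build GRCm39, per the submitters' processing notes. The authors also deposited log2 fold changes by gene symbol, with edgeR 3.32.1 listed in the same notes and the filter and model not given in the sources used here. The transcript set and use of strand are not given there either, so overlapping and antisense genes cannot be told apart. That deposited table names neither log base nor direction, and both were read from its closeness to the log2 values computed here (r = 0.957 over 10544 genes).

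Transcripts were assigned to genes with GENCODE M21 (on GRCm38), which gave names, chromosomes and gene order. Of all transcripts 1078, with 0.426% to 0.448% of the counts, matched no gene and were left out. Deposited estimated counts were summed per gene, rounded and tested with edgeR 4.0.16 in R 4.3.3 (filterByExpr, TMM factors, robust quasi-likelihood fit) across 13247 genes, and p-values were adjusted by Benjamini-Hochberg. CPM are these counts scaled to the TMM library size. TPM are the deposited values summed per gene. SE were taken from the log2 fold change and the square root of F. The scripts were tested on simulated data. Members and lists were chosen with earlier results of these data known, and no list was tested as a set.

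Named members were, among called members whose higher line reached 5 CPM, the 8 largest falls and the 8 largest rises, the 4 highest and the 4 lowest by TPM, the Mrps18 paralogs, Mrpl12, Mrps30, Mrps36 and Mrpl58, and the members closest to and farthest from their chromosome median. Up to 3 called genes were named from each related list. Mrpl10, Mrpl18, Mrpl54, Mrpl19, Mrps11, Dap3, Chchd1 and the genes named for promoter letters were chosen after their values were seen. Shared sequence was the share of a gene's 31-base words found in transcripts of other genes. Alternatives were other scaling factors, DESeq2 1.42.0, limma voom 3.58.1, other filters, a length offset, protein-coding genes alone, a stricter threshold, the replicate number as a block, and each library left out.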

Additional observations from a re-analysis of the deposited data

How the results depend on the processing

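Over 17 alternative settings, 41 to 52 members were called lower and 6 to 8 higher, against 48 and 8 in the values reported. The lowest of these counts, 41, came with effective lengths as an offset. Of the 56 called members, 46 kept their call in every setting (41 lower, 5 higher), and no called member changed sign, whereas 7 of the 22 uncalled ones did in some setting. Of 1326 pairs of a member and a setting, 31 lost a call and 17 gained one. The calls lost most often were those of Mrpl53 (10 settings), Mrpl22 (7 settings) and Mrpl16 (6 settings), while Mrps21 (adjusted p = 0.0502 by the edgeR quasi-likelihood test with Benjamini-Hochberg adjustment) passed in 7. With that offset, 1 Mrps gene was called higher, against 2, and the cause was not tested. Leaving out 1 library at a time, the median of the Mrps genes lay between -0.19 (without LM2 replicate 1) and -0.14. The count of mitochondrially encoded mRNAs called higher, 2 as reported, ran between 0 and 9. Of 28 assembly factors 1 was called higher without a filter on low counts and 4 with at least 1 CPM in 3 libraries, and 3 aminoacyl-tRNA synthetases were called higher with the length offset, against 1.

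The labels give both lines the same replicate numbers. Deviations of same-numbered libraries correlated at -0.078, 0.0452 and 0.0147. Pairs with different numbers ran from -0.0899 to 0.0729, so same-numbered pairs did not stand out over all tested genes. The labels name no shared day or batch, and such weak correlations cannot decide whether there was one. With the replicate number as a block, 8 members were called higher and 49 lower, and over all genes 4149 higher and 4101 lower, against 4156 and 4116 without it.

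Estimated counts split reads between genes that share sequence. Over the 67 members with at most 20% of shared 31-base words, 43 were called lower and 6 higher.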

Other observations

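Among 15 tested genes known as regulators of mitochondrial biogenesis and the mitochondrial stress response, 9 were called lower in LM2, 4 higher and 2 did not pass (edgeR quasi-likelihood test, Benjamini-Hochberg adjusted p below 0.05). Over all tested genes 31.1% were called lower and 31.4% higher, so the share of higher calls in the list, 26.7%, was close to that background. Nrf1, a transcription factor of many genes for mitochondrial proteins, had 35.9, 40.4 and 38.02 CPM in LM2, against 62.0, 61.2 and 63.1 CPM in Parental (log2 fold change -0.70 ± 0.04, chromosome 6). Yy1, the zinc finger factor, had 151, 148 and 151 CPM in LM2, against 186, 193 and 194 CPM in Parental (log2 fold change -0.35 ± 0.03). Each of these genes was lower in all LM2 libraries than in any Parental library. The GABP subunits Gabpa, Gabpb1 and Gabpb2 were called lower, at log2 fold changes of -0.16 ± 0.03, -0.21 ± 0.05 and -0.24 ± 0.03. The coactivator Pprc1 stood at -0.15 ± 0.03, while its relatives Ppargc1a and Ppargc1b were below 1 CPM in every library and were not tested. Myc, a growth regulator, was called higher, with 699, 708 and 698 CPM in LM2, against 565, 572 and 582 CPM in Parental (log2 fold change 0.29 ± 0.02).

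The mitochondrial proteases differed in direction. Lonp1, which degrades damaged matrix proteins, had 248, 245 and 249 CPM in LM2, against 219, 209 and 214 CPM in Parental (log2 fold change 0.21 ± 0.03). Clpp, the matrix peptidase, had 57.3, 55.1 and 54.5 CPM in LM2, against 65.7, 61.8 and 59.5 CPM in Parental (log2 fold change -0.17 ± 0.04). The chaperonin gene Hspd1 did not pass (log2 fold change 0.0053 ± 0.02). The stress factors Atf4 and Atf5 were called in opposite directions, at -0.21 ± 0.02 and 0.14 ± 0.03. The stress factor gene Ddit3 had 8.91, 9.19 and 9.17 CPM in LM2, against 6.13, 6.12 and 6.52 CPM in Parental (log2 fold change 0.54 ± 0.09). Its symbol belongs to 2 gene identifiers that start close together on the same strand, so the split of reads between them is uncertain. This list was assembled with earlier results of these data known, and whether its members bear on the levels of ribosomal protein genes was not tested.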
